A study of Mus musculus with 18 samples.

Results

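Apolipoprotein E (Apoe), the very low density lipoprotein receptor (Vldlr), the low density lipoprotein receptor-related protein Lrp1 and the receptor-associated protein Lrpap1 were followed in the middle part of mouse embryos that carried or lacked Nkx2-5. All probe sets annotated to 1 of these 4 symbols were taken, which gave 6 probe sets for 4 of the 6137 named genes on the arrays. The genes were grouped because Apoe and Vldlr were known to stand higher in homozygous mutant embryos, so their values in that comparison are a description and carry no test. Of the 6 probe sets, 5 were bright enough to be tested against the spread between arrays. Of these 5, 2 were above the background floor on the homozygous mutant arrays alone, the Apoe probe set of array type a and 1 of the Vldlr probe sets. The Apoe probe set of type b was above it on the homozygous mutant arrays and 1 wild-type array. Since 3 arrays were needed, both Apoe probe sets and this Vldlr probe set passed the filter only through the homozygous mutant arrays. The remaining Vldlr probe set was under the background floor on every array.

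Embryos were homozygous mutant, heterozygous or wild type for Nkx2-5, also called Csx, the gene of a homeobox factor known for its part in heart formation, and were taken at embryonic day 9.5. Total RNA came from the middle part of the embryo, divided in 3, which holds heart, gut, blood and neural tissue together. Each of the 3 genotypes had 3 arrays on each of 2 array types, called a and b, with different probe sets. Homozygous mutant arrays carry the numbers 2 and 6 on either type, with 8a as the third on type a and 9b as the third on type b, the heterozygous arrays 3, 4 and 8, and the wild-type arrays 1, 5 and 7. The labels give no mutant allele design, strain, litter or somite stage, and do not tell if the RNA of an array was pooled from several embryos and if 8a and 9b share an RNA. What the p-values measure is thus the spread between these arrays, part of which may be technical and part of which is removed where values were set to a floor. The arrays had no probe set named Nkx2-5, so the genotypes were not checked through the mutated gene.

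Lipoprotein particles carry cholesterol and triglyceride between tissues, and apolipoprotein E on their surface is the ligand by which receptors of the low density lipoprotein receptor family take them up. Vldlr binds apolipoprotein E-rich particles and, in the brain, the guidance protein reelin. Lrp1 is a large endocytic receptor for apolipoprotein E remnants, proteases and protease inhibitors, and Lrpap1 is a chaperone that keeps ligands off these receptors while they fold in the endoplasmic reticulum. In the mouse embryo Apoe is known from the visceral endoderm and the liver, and later from macrophages and glia.

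The sequence before the transcription start is shown for each of the 4 genes, since 2 of them stood higher in homozygous mutant embryos and the homozygous mutant arrays of the other 2 overlapped with the rest. Each line gives the 250 bases before the most upstream start of the gene in RefSeq (mouse build GRCm38.p6), read 5′ to 3′ on the gene's strand, and capitals mark every match to the 5 motifs that were searched on both strands.
Apoe, chr7:19699189-19699438, minus strand: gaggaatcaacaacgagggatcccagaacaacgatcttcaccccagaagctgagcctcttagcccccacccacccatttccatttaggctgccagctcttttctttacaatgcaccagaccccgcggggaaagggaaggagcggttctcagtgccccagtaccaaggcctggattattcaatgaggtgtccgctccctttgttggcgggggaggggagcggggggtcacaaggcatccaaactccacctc
Vldlr, chr19:27216234-27216483, plus strand: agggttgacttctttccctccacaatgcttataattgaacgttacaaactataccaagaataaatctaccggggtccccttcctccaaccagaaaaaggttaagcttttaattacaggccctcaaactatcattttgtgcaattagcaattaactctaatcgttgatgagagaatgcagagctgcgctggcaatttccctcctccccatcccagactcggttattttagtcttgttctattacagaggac
Lrp1, chr10:127621149-127621398, minus strand: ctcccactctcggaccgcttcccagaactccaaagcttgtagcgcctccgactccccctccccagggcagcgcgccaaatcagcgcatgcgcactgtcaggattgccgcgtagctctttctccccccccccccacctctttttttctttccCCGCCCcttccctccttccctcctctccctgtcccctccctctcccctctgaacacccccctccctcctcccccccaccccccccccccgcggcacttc
Lrpap1, chr5:35105700-35105949, minus strand: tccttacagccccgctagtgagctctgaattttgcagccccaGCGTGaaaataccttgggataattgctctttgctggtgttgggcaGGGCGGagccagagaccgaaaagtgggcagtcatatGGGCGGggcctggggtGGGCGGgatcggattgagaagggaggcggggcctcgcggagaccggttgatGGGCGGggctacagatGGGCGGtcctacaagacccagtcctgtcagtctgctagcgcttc
The motifs were the Nkx2-5 element TNAAGTG, the hypoxia response cores ACGTG and GCGTG, the GC box GGGCGG and the TATA box TATAAA. They are found in 10.1%, 16.6%, 28.2%, 32.7% and 12.4%, in that order, of the 32851 windows of the same length before RefSeq starts. The windows of Apoe and Vldlr held no match. The Lrp1 window held 1 GC box, on the opposite strand, at position -99 (its first base as printed, with -1 as the base before the start). The Lrpap1 window held 5 GC boxes, from position -163 to position -44, and 1 GCGTG at position -208. RefSeq lists 3 start windows for Apoe and 2 for Vldlr. Of those not printed, an Apoe window at chr7:19698399-19698648 on the minus strand holds TGAAGTG, a match to TNAAGTG, at position -97 from its own start, another Apoe window holds overlapping TATAAA matches on both strands, and the second Vldlr window holds 1 GC box. A match is a description of these letters and not a site.

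Values are deposited intensity, a linear brightness that can be negative, so something was subtracted from it, and what was subtracted is not known. Dim probe sets were taken to scatter around 0. A floor was set at 2 noise SDs, which is 375.1 on type a arrays and 523.1 on type b arrays, and values under it were set to it before log2 was taken. A log2 fold change against a genotype that was under the floor on all its arrays is a lower bound and is written as at least N-fold. The arrays of such a genotype are equal after flooring, so they add no spread to the SE and p of that probe set. Among all 6935 probe sets tested with limma, 48, or 0.692%, differed between homozygous mutant and wild-type embryos at an adjusted p under 0.05, 35 of them (0.505%) being higher. Array 8a and array 9b stood apart in hybridisation controls. The 3′ to 5′ signal ratio of actin was 2.50 on 8a and 2.28 on 9b, against 0.967 to 1.41 and 0.849 to 1.40 on the other arrays of each type. The spiked control BioB read 3950 on 8a and 4531 on 9b, against 966 to 1539 and 1498 to 2320.

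Apoe, the ligand, was above the floor on every homozygous mutant array and, apart from 1 wild-type array of type b, under it on every other array. The 2 probe sets, d00466_f_at on type a and Msa.4.0_f_at on type b, are annotated to the same GenBank entry and so are no independent measurements of the gene. On type a the homozygous mutant arrays 2, 6 and 8a read 967.6, 1360.2 and 3903.8. The heterozygous arrays 3, 4 and 8 read -2280.9, -1008.1 and -111.5, and the wild-type arrays 1, 5 and 7 read -93.6, -1756.0 and -570.4. The homozygous mutant arrays lay wholly above the others, as in 7.38% of all probe sets tested against wild type and 10.2% against heterozygous embryos, with 8a far above 2 and 6, while the heterozygous and wild-type arrays overlapped. The means were 2077.2 ± 1594.0 in homozygous mutant, -1133.5 ± 1090.1 in heterozygous and -806.7 ± 856.0 in wild-type embryos (SD, n = 3 each). Heterozygous and wild-type embryos had no array above the floor, and homozygous mutant embryos were at least 4.6-fold above each of them, a log2 difference of 2.20 (SE 0.41). Their floored arrays add no spread to this SE. In whole pieces of tissue, more cells of a type and more RNA per cell cannot be told apart.

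On type b Apoe read 4338.0, 744.4 and 4518.5 on homozygous mutant arrays 2, 6 and 9b. Heterozygous arrays 3, 4 and 8 read -888.7, -125.9 and -1934.9, and wild-type arrays 1, 5 and 7 read 561.5, -944.9 and -852.5. Arrays 2 and 9b were high, array 6 was just over the floor, and wild-type array 1 also passed it, at a value under that of array 6. The means were 3200.3 ± 2128.8 in homozygous mutant, -983.2 ± 908.2 in heterozygous and -412.0 ± 844.3 in wild-type embryos (SD, n = 3 each). The log2 difference was 2.19 (SE 0.55) between homozygous mutant and wild-type embryos, a 4.56-fold ratio on floored values with 1 of 3 wild-type arrays above the floor, and homozygous mutant embryos were at least 4.67-fold above heterozygous ones. The 2 probe sets ordered the homozygous mutant replicates differently, since replicate 2 was the lowest on type a and close to the highest on type b.

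Some of the negative values of Apoe were far outside the noise. On type a the highest homozygous mutant array, 8a, lay at 20.8 noise SDs, while heterozygous array 3 lay at -12.2 and wild-type array 5 at -9.37. Only 0.169% of the probe sets on heterozygous array 3 and 0.353% on wild-type array 5 read lower than Apoe there. Both probe sets carry the suffix f, which in the maker's naming marks probes shared within a sequence family, and what else they take up was not tested. What brought the negative values this far under 0 was not tested either. Setting these values to the floor shortened the distance between the genotypes. On the generalised log scale, which has no floor and was chosen after the negative values were seen, the log2 difference between homozygous mutant and wild-type embryos was 5.01 for the type a probe set and 4.09 for that of type b, and that between homozygous mutant and heterozygous embryos was 5.40 and 4.99. Without 8a the difference to wild type on type a was 1.61, without array 2 it was 2.62 and without array 6 it was 2.37. On type b it was 1.75 without 9b, 1.78 without array 2 and 3.05 without array 6.

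**Figure D1:**
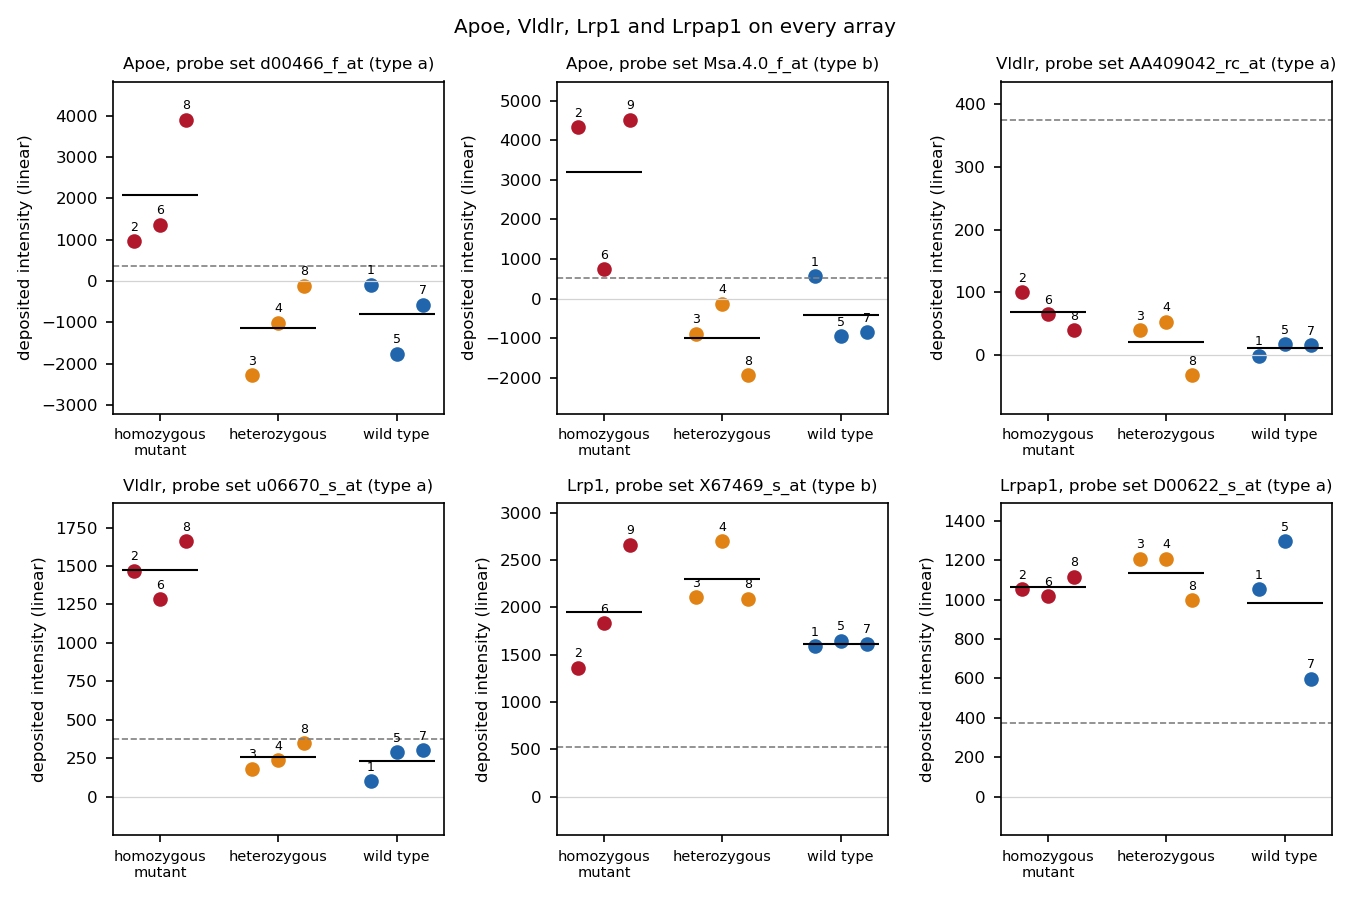
Deposited intensity (linear, vertical axis) of the 6 probe sets on every array, with homozygous mutant arrays in red, heterozygous in orange and wild-type in blue, array numbers above the points, genotype means as bars and the floor as a dashed line. Both Apoe probe sets and Vldlr u06670_s_at lie above the floor on all 3 homozygous mutant arrays, while Lrp1 and Lrpap1 are above it on all 9.

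Vldlr exceeded the floor on the homozygous mutant arrays alone. Probe set u06670_s_at read 1470.0, 1283.4 and 1660.8 on homozygous mutant arrays 2, 6 and 8a. It read 181.6, 237.1 and 348.6 on heterozygous arrays 3, 4 and 8, and 101.0, 290.1 and 300.6 on wild-type arrays 1, 5 and 7. Every homozygous mutant array stood far above every other array, and the heterozygous and wild-type arrays overlapped under the floor. The means were 1471.4 ± 188.7, 255.8 ± 85.05 and 230.6 ± 112.3 in homozygous mutant, heterozygous and wild-type embryos (SD, n = 3 each). Homozygous mutant embryos were thus at least 3.90-fold above both, a log2 difference of 1.96 (SE 0.20) that was 1.87 without 8a, 1.96 without array 2 and 2.06 without array 6. The heterozygous and wild-type arrays, all set to the floor, add no spread to this SE.

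The other Vldlr probe set, AA409042_rc_at, was under the floor on all arrays of type a and gave no fold. Its homozygous mutant arrays 2, 6 and 8a read 100.4, 65.4 and 39.5, its heterozygous arrays 40.0, 53.2 and -31.8 and its wild-type arrays -0.5, 18.0 and 15.7. The order of the arrays is not readable at this brightness, where all values lie within 1 noise SD of 0.

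In the description against wild type, 2 of the 5 member probe sets tested, Apoe on type a and Vldlr u06670_s_at, passed the threshold that 0.692% of all probe sets passed. Against heterozygous embryos the same 2 passed a threshold met by 1.15% of all probe sets. These counts rest on the values that grouped the genes and on the same homozygous mutant arrays, and nothing is read from them.

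Lrp1 was above the floor on all 9 arrays of type b. Probe set X67469_s_at read 1364.4, 1833.4 and 2660.4 on homozygous mutant arrays 2, 6 and 9b. Heterozygous arrays 3, 4 and 8 read 2107.6, 2698.4 and 2091.5, and wild-type arrays 1, 5 and 7 read 1588.9, 1648.3 and 1616.7. The wild-type arrays lay close together, the homozygous mutant arrays spread to both sides of them, and the heterozygous arrays were all higher than every wild-type array. The means were 1952.7 ± 656.2 in homozygous mutant, 2299.2 ± 345.8 in heterozygous and 1618.0 ± 29.72 in wild-type embryos (SD, n = 3 each).

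Between heterozygous and wild-type embryos, a comparison that did not serve to group the genes, the log2 difference of Lrp1 was 0.50 (SE 0.28, 95% interval -0.12 to 1.11). It did not pass the test, with an adjusted p of 1 in limma and 0.102 before adjustment. Heterozygous arrays above every wild-type array were seen in 3.89% of all probe sets tested. The difference between homozygous mutant and wild-type embryos was 0.22 (SE 0.28) and turned to -0.033 without 8a and 9b, so that its sign rested on array 9b. Against heterozygous embryos it was -0.28 (SE 0.28). In the order of mean level heterozygous stood first, homozygous mutant next and wild type last. The arrays of homozygous mutant embryos overlapped with those of either neighbour in that order.

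Lrpap1, the chaperone of these receptors, was above the floor on all 9 arrays of type a and had overlapping values in the 3 genotypes. Probe set D00622_s_at read 1052.1, 1017.4 and 1115.7 on homozygous mutant arrays 2, 6 and 8a. Heterozygous arrays 3, 4 and 8 read 1207.2, 1208.5 and 996.4, and wild-type arrays 1, 5 and 7 read 1054.4, 1296.1 and 598.6. All genotypes overlapped, and wild-type array 7 was the only low one. The means were 1061.7 ± 49.85 in homozygous mutant, 1137.4 ± 122.1 in heterozygous and 983.0 ± 354.2 in wild-type embryos (SD, n = 3 each). The log2 difference to wild type was 0.18 (SE 0.30) in homozygous mutant and 0.28 (SE 0.30, 95% interval -0.38 to 0.93, limma adjusted p 1) in heterozygous embryos. Without wild-type array 7 these were -0.14 and -0.045, so neither sign was settled.

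Loss of 1 allele moved none of the members past the test. None of the 5 tested member probe sets differed between heterozygous and wild-type embryos at an adjusted p under 0.05 in limma, as was true of all 6935 probe sets (0.0%), of which 118 (1.7%) had an unadjusted p under 0.05. Each alternative setting of the fit also called 0 members in this comparison. Apoe on type a and Vldlr u06670_s_at were under the floor in both genotypes, so a difference between them was not detectable at this brightness. Apoe on type b differed by -0.03 on the log2 scale with all heterozygous and 2 of 3 wild-type arrays at the floor.

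**Figure D2:**
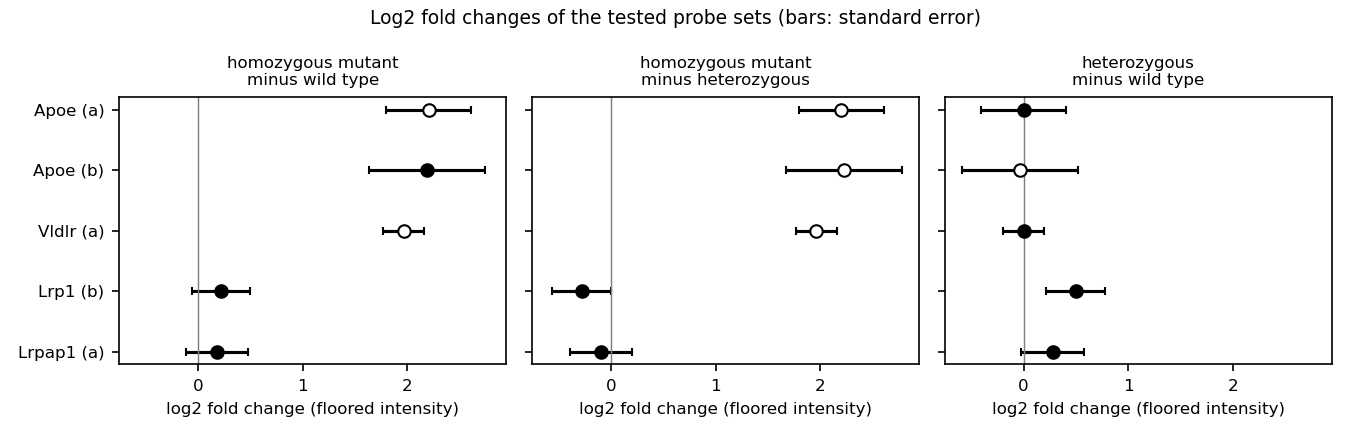
Log2 difference (horizontal axis, floored intensity) with its standard error for the 5 tested probe sets in homozygous mutant minus wild-type, homozygous mutant minus heterozygous and heterozygous minus wild-type embryos. Open points mark a comparison with 1 side, and not both, under the floor on all its arrays. In the third panel Apoe on type a and Vldlr are filled although both genotypes were under the floor, so their 0 is not a measured difference. Apoe and Vldlr lie near 2 in the first and second panels and at about 0 in the third, and Lrp1 and Lrpap1 lie within 0.50 of 0 in all panels.

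Cell types known to express Apoe were followed through their marker genes on the same arrays. The liver bud and visceral endoderm list had 9 genes on type a, of which Hnf4a, Fgg and Apoa1 were under the floor on every array. Their summed intensity was 2669 to 5743 in homozygous mutant, 2016 to 5957 in heterozygous and 1864 to 3909 in wild-type embryos. On type b, with 6 genes and Apoc1 under the floor everywhere, the sums were 2918 to 6297, 3020 to 7235 and 2490 to 7504 in the same order. The ranges of the genotypes overlapped on both types, and 0 of the 8 tested genes of the list differed between homozygous mutant and wild-type embryos (limma, smallest adjusted p 0.538).

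Afp, the fetal albumin-like protein of yolk sac and liver, was high on 1 array of each genotype. On type a Afp read 1775.2, 233.8 and 210.4 on homozygous mutant arrays 2, 6 and 8a, then 201.0, 1257.3 and 90.6 on heterozygous arrays 3, 4 and 8. Wild-type arrays 1, 5 and 7 read 1406.3, 159.3 and 106.7. On type b the same replicates were high, with 3641.9 on homozygous mutant array 2, 3309.1 on heterozygous array 4 and 3514.9 on wild-type array 1, against at most 705.9 on the others. Afp itself differed between homozygous mutant and wild-type embryos by 0.11 on type a and 0.28 on type b on the log2 scale (limma adjusted p 0.969 and 0.945).

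Apoe was above the floor on homozygous mutant arrays both with and without high Afp. The wild-type array that passed the floor for Apoe on type b was the one with high Afp. Each genotype holds 1 Afp-high array per type, so a block for it leaves the log2 differences as they are by construction.

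**Figure D3:**
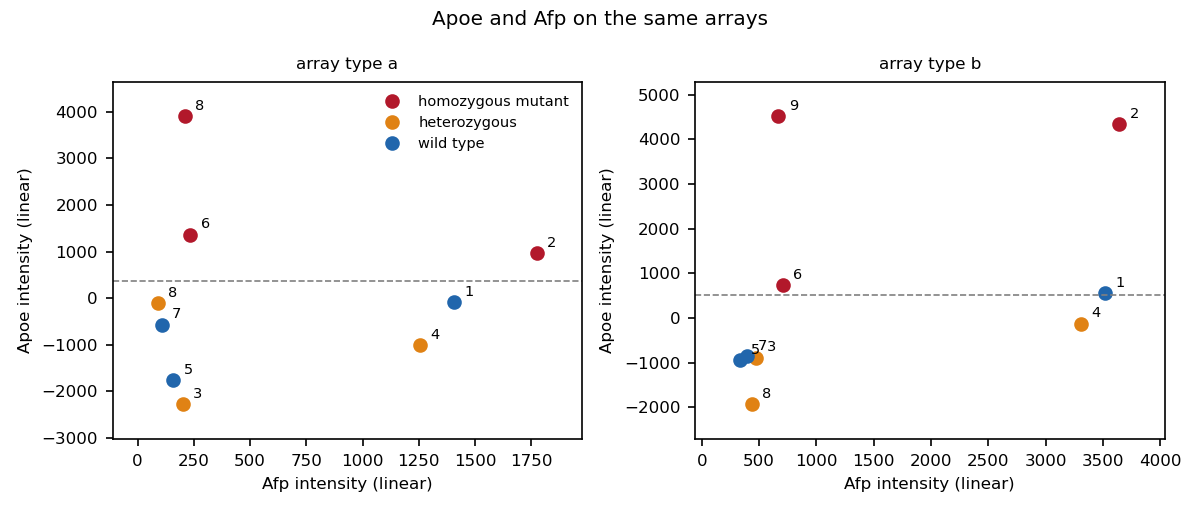
Apoe intensity (vertical axis, linear) against Afp intensity (horizontal axis, linear) on each array of type a (left) and type b (right), coloured by genotype with array numbers beside the points and the Apoe floor dashed. On each type 1 array of each genotype has high Afp, and the homozygous mutant arrays lie above the Apoe floor at low and at high Afp.

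Summed macrophage markers, which include genes of microglia, overlapped between the genotypes. The 8 genes on type a summed to 5991 to 6424 in homozygous mutant, 6257 to 9667 in heterozygous and 4842 to 8930 in wild-type embryos, with Ctss, Spi1 and Fcgr3 under the floor on every array. The 8 on type b summed to 2905 to 3162, 3053 to 4234 and 2347 to 4001 in the same order, with Mrc1, Cd53, Adgre1, Csf1r and C1qa under the floor. The 3 brightest tested genes, the lysozyme Lyz2, the leukocyte phosphatase Ptprc and the lipopolysaccharide co-receptor Cd14, differed between homozygous mutant and wild-type embryos by 0.05, -0.16 and -0.08 on the log2 scale (limma adjusted p 0.973, 0.866 and 0.951). Of 7 tested genes, 5 were negative and 2 positive against wild type. Against heterozygous embryos all 7 were negative (median -0.31, against -0.07 over all genes), with 0 past the test (limma, smallest adjusted p 0.476).

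Neural markers moved with the genotype in which Apoe and Vldlr were high. Summed over 8 genes of type a they read 5541 to 8656 in homozygous mutant, 10880 to 14331 in heterozygous and 10935 to 13999 in wild-type embryos, with Neurod1, Elavl3 and Map2 under the floor on every array. The 2 genes of type b summed to 650.1 to 1336, 1960 to 2925 and 2064 to 4950. All 6 tested genes were lower in homozygous mutant than in wild-type embryos, 0 of them past the test (limma, smallest adjusted p 0.0609), and Hes5, a Notch target of neural progenitors, fell against heterozygous embryos (log2 difference -1.26, SE 0.24, limma adjusted p 0.0335). Endothelial markers stood to the other side: at the brightest probe set all 6 tested genes had a positive difference to wild type (median 0.14) and to heterozygous embryos (median 0.22), with 0 past the test. A dimmer Emcn probe set, under the floor on all homozygous mutant arrays, was at -0.27 in both comparisons. Of all genes, 54.5% had a negative difference to wild type. The medians over all genes were -0.03 and -0.07. The largest differences to wild type, 0.67 for Tie1 and 0.55 for Eng, had their highest value on array 9b (3603.0 and 10538.2), which stood apart in the controls. The endothelial sums were 2825 to 4124 in homozygous mutant, 2446 to 2802 in heterozygous and 2646 to 3251 in wild-type embryos over 6 genes of type a, with Pecam1 and Sox18 under the floor on every array. Over 3 genes of type b they were 8943 to 17131, 6219 to 8237 and 6955 to 9716 in the same order. On type b the homozygous mutant sums lay above all heterozygous ones, as did 10.2% of all single probe sets tested. On type a the lowest homozygous mutant sum, 2825, and the highest heterozygous one, 2802, were closer than 1 noise SD of a probe set. On both types the homozygous mutant sums overlapped with wild type. The part of the neural and endothelial markers in the Apoe and Vldlr values was not tested. Cardiac muscle markers checked the label of the tissue: all 6 genes of type a and all 4 of type b were above the floor on at least 1 array, with sums of 36820 to 108878 in homozygous mutant, 31661 to 71728 in heterozygous and 47041 to 72490 in wild-type embryos on type a. The endothelial, cardiac muscle and trophoblast and decidua lists had 6, 8 and 2 tested genes, with 0 past the test against wild type (limma, smallest adjusted p 0.477, 0.129 and 0.469). The 2 tested genes of the last list were Des and Igfbp1. Its genes Prl2c2, Prl8a2 and Tpbpa were under the floor on every array and were not tested, so nothing is read on trophoblast.

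The other receptors of the family and their regulators did not pass the test. Of 24 listed genes, 10 were on the arrays and 7 were tested, with a median log2 difference of 0.21 between homozygous mutant and wild-type embryos, against -0.03 over all 3909 genes. Called genes were 0 higher and 0 lower, against 0.537% and 0.179% of all genes. The highest was Stab1, a scavenger receptor of sinusoidal endothelium and macrophages, at 818.1, 688.5 and 1572.4 on homozygous mutant arrays, 147.7, 524.0 and 381.3 on heterozygous and 636.0, 199.3 and 382.5 on wild-type arrays. Its homozygous mutant arrays lay above all others, as in 7.38% of all probe sets tested against wild type and 10.2% against heterozygous embryos. The log2 difference to wild type was 1.09 (SE 0.33, limma adjusted p 0.201). Its highest value, 1572.4, was on array 8a, which stood apart in the controls. The lowest was Snx17, a sorting nexin that recycles Lrp1 from endosomes, with a log2 difference of -0.41 to wild type (adjusted p 0.521) and -0.99 to heterozygous embryos (adjusted p 0.0563, both limma). Its means were 3456.6 ± 619.4, 6873.0 ± 1449.3 and 4590.8 ± 800.5 in homozygous mutant, heterozygous and wild-type embryos (SD, n = 3 each), so the heterozygous arrays were the high ones. Cd36, a receptor for fatty acids and oxidised lipoproteins that was picked after its values were seen, was above the floor only on the homozygous mutant arrays, at 765.4, 805.9 and 667.2. That is at least 1.42-fold above wild type, given without a test since the gene entered the fit only through these arrays.

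No other apolipoprotein passed the test. The list of apolipoproteins, lipases and lipid transfer proteins had 26 genes, 15 on the arrays and 8 tested, with 0 called and a median of -0.03, equal to that of all genes. Its highest was Apoc2, the cofactor of lipoprotein lipase, at 0.33 (limma adjusted p 0.860), and its lowest was Apoa2, a protein of high density lipoprotein, at -0.63 (adjusted p 0.605). Apoc2 was also the only tested gene among the 4 nearest protein-coding genes on each side of Apoe, where Apoc1 was under the floor on every array. The sterol efflux and LXR list had 19 genes, 8 on the arrays and 4 tested, with 0 called and a median of 0.03. It ran from -0.36 for the sterol exporter Abcg1 (limma adjusted p 0.684) to 0.30 for Npc1, which exports cholesterol from lysosomes (adjusted p 0.734).

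Downstream of Vldlr, the reelin list had 18 genes, 14 on the arrays and 9 tested, with 0 called and a median of 0.05. Its extremes were the lissencephaly-complex subunits Pafah1b3 at 0.41 and Pafah1b2 at -0.28 (limma adjusted p 0.498 and 0.806). The list of Lrp1 ligands and partners had 31 genes, 27 on the arrays and 21 tested, with 0 called and a median of 0.12. The highest was Ccn2, a matricellular protein, with means of 1027.5 ± 324.0 in homozygous mutant, 481.2 ± 88.71 in heterozygous and 572.5 ± 66.49 in wild-type embryos (SD, n = 3 each), a log2 difference to wild type of 0.80 (SE 0.28, limma adjusted p 0.283). The lowest was Nes, an intermediate filament of neural progenitors, at -1.02 (adjusted p 0.542). Nes is also among the neural markers above, so this is not a separate result. Its dimmer probe set was at -2.07 (limma adjusted p 0.165).

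Genes of cholesterol and fatty acid synthesis, whose products lipoproteins carry, had negative differences to wild type in homozygous mutant embryos, of which 0 passed the test. Of 34 listed genes, 14 were on the arrays and 11 were tested, with a median log2 difference to wild type of -0.49, against -0.03 over all genes. All 11 had a negative difference, against 54.5% of all genes, and 8 of 11 had all homozygous mutant arrays under all wild-type arrays, against 9.08% of all genes. Ebp, among the 11 and the 8, was above the floor on the wild-type arrays alone, so its sign followed from the filter. Its value, a lower bound in size, is the list median of -0.49 and the median of replicate 8a with 9b below. With a filter of 6 arrays above the floor, which Ebp does not pass, all 10 tested genes were negative. Their median was then -0.51, against -0.04 over all genes. By limma 0 passed the test in this comparison, with 777 (11.2%) of all probe sets at an unadjusted p under 0.05. The median per replicate against the wild-type mean was -0.60, -0.35 and -0.49 in homozygous mutant 2, 6 and 8a with 9b, 0.02, 0.05 and 0.04 in heterozygous 3, 4 and 8, and -0.05, -0.01 and 0.06 in wild-type 1, 5 and 7. The 6 tested neural markers had a median of -1.05 on the same arrays, all 6 negative, and their part in the values of this list was not tested.

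The lowest gene of this list was Scd1, the stearoyl-CoA desaturase. It read 435.2, 892.0 and 833.2 on homozygous mutant arrays, 1873.3, 1679.3 and 1599.2 on heterozygous and 1338.9, 1786.4 and 1528.1 on wild-type arrays. The homozygous mutant arrays were all under the others, and the log2 difference was -1.17 to wild type (SE 0.30, limma adjusted p 0.122) and -1.32 to heterozygous embryos (SE 0.30, adjusted p 0.0567). The highest was Mbtps1, a protease that activates sterol regulatory factors, at -0.02 (adjusted p 0.982).

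Idi1, the isomerase that makes the building block of isoprenoids, read 1910.9, 2476.6 and 1483.2 on homozygous mutant arrays 2, 6 and 8a. Heterozygous arrays read 3891.8, 3633.4 and 3781.9, and wild-type arrays 3112.5, 3987.0 and 4395.7. All homozygous mutant arrays lay below the lowest other array. Idi1 fell against heterozygous embryos (log2 difference -0.98, SE 0.21, limma adjusted p 0.0488), the only gene of the 6 lists to pass in any comparison, where 0.333% of all genes passed as lower, and kept that call in 5 of 18 alternatives (adjusted p 0.0383 to 0.198). Against wild type it differed by -0.99 (SE 0.21, adjusted p 0.0586, and 0.0453 without homozygous mutant array 6). Further enzymes of the same route, taken for their place in it, had log2 differences to wild type of -0.54 for Hmgcs1, -0.46 for Fdft1, -0.93 for Sqle and -0.48 for Lss, with limma adjusted p between 0.231 and 0.458. Between heterozygous and wild-type embryos the median of the list was -0.01, with 6 genes negative and 5 positive, against 45.9% of all genes negative. The 6 include Ebp, whose sign followed from the filter here too.

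**Figure D4:**
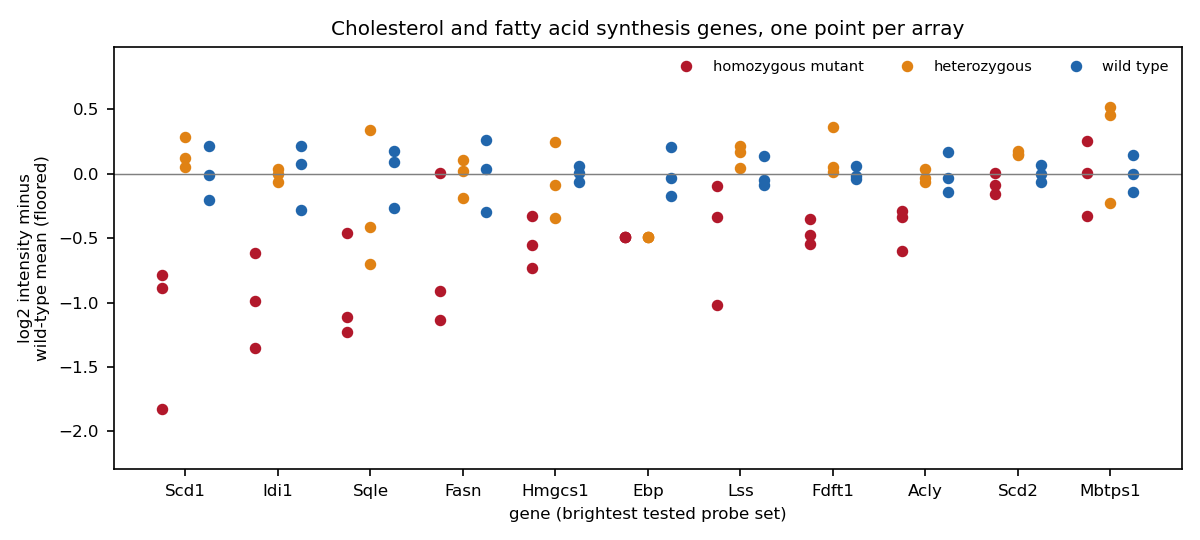
Log2 intensity of the 11 tested cholesterol and fatty acid synthesis genes on every array, minus the wild-type mean of each gene (vertical axis, floored values), with homozygous mutant arrays in red, heterozygous in orange and wild-type in blue. The homozygous mutant points of Scd1 and Idi1 lie under all other points of the gene, and the heterozygous points scatter around 0 for most genes; the Ebp points at -0.49 are values at the floor.

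The genes most like each member over the 9 arrays of its type were found by Pearson's r on log2 floored intensity, as a description without a p. Since Apoe on type a and Vldlr were at the floor on 6 of 9 arrays, their likeness rests on the 3 homozygous mutant arrays. A high r to them thus mostly restates that a gene stood higher on those arrays, which is what grouped Apoe and Vldlr. Among 3547 named probe sets of type a, Vldlr was most like Ndrg1, a stress-responsive gene (r 0.992), Ccdc130 (0.991) and Slc2a3, a glucose transporter (0.987). Slc2a3 read 12783.9 ± 950.2 in homozygous mutant, 3201.3 ± 474.4 in heterozygous and 3038.0 ± 493.7 in wild-type embryos, and Ndrg1 read 857.4 ± 40.19, 61.13 ± 119.1 and 58.63 ± 77.0 (SD, n = 3 each). Apoe on type a was most like the interferon receptor subunit Ifnar2 (0.993), the ribosomal protein gene Rps29 (0.967) and the amino acid transporter Slc1a4 (0.966). Ndrg1, Ccdc130, Ifnar2 and Slc1a4 themselves had heterozygous and wild-type means under the floor of 375.1, unlike Slc2a3 and Rps29.

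On type b, among 1079 named probe sets, Apoe was most like the forkhead factor Foxo3 (0.951), Washc2 (0.946) and Rfc1, a subunit of the replication clamp loader (0.934). Foxo3 read 3400.1 ± 1403.6 in homozygous mutant, 1475.6 ± 230.1 in heterozygous and 1415.4 ± 378.6 in wild-type embryos (SD, n = 3 each). Lrp1 was most like Yap1, a coactivator of the Hippo pathway (0.936), the tetraspanin Cd151 (0.840) and Gdi2 (0.838). Lrpap1 was most like the retinoic acid receptor Rarg (0.955), Lyz2 (0.927) and the growth factor receptor Fgfr2 (0.927). Wild-type array 7 was the lowest array for Lrpap1 (598.6) and for Lyz2 (1090.8). The wild-type means were 854.5 ± 498.2 for Rarg and 2517.0 ± 1270.9 for Lyz2. An SD does not tell which array was low, so the part of array 7 is not shown for Rarg and Fgfr2.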

How the data were processed

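Total RNA of the middle part of embryos at embryonic day 9.5 was read on 1-colour arrays of 2 types. The values the authors deposited are intensity per probe set. Per the labels no software, background correction or scaling is known (not given in the sources used here). Negative values show that something was subtracted, and what it was is not known. The deposited scaling was kept. Control probe sets (61 per type) were left out, which left 6523 and 6534 probe sets. Heterozygous array 8 of type b lacks values for 499. Symbols came from the platform annotation: 5541 and 2001 probe sets had 1 symbol, 197 and 27 several, 785 and 4506 none.

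Noise was estimated from the negative values, as their median size divided by the normal-distribution constant, which gave an SD of 187.5 for type a and 261.5 for type b. Values under 2 noise SDs were set to that floor, and log2 was taken. Probe sets above it on at least 3 of 9 arrays were tested on log2 values with limma, version 3.58.1 (R 4.3.3; lmFit, then eBayes with its trend option; two-sided p) on the 9 arrays of a type, 3969 and 2966 probe sets, with Benjamini-Hochberg adjustment over both types. The fit was tested on simulated data. The number of arrays limits the precision. For gene lists the brightest tested probe set of a gene was used.

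Named are all members, from each list the genes called in any comparison and those of highest and lowest difference between homozygous mutant and wild-type embryos, the 3 genes most like each member, Afp and the 3 brightest tested macrophage genes. The members and lists were chosen with earlier results of these data known. Alternatives were a floor of 1 or 4 noise SDs, quantile normalization, no filter, a filter of 6 arrays, only the compared genotypes, no trend, an Afp block, leaving out each replicate and, added after the data were seen, a generalised log without a floor.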

Additional observations from a re-analysis of the deposited data

How the results depend on the processing

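Between homozygous mutant and wild-type embryos 48 probe sets were called, 19 without the filter on low signal and 7 with only the genotypes compared in the fit. Leaving out 1 replicate gave 14 to 55, namely 14 and 16 if wild-type replicate 5 or 7 was dropped, 18 for homozygous mutant 2, 27 for heterozygous 3 and 46 for heterozygous 8. Against heterozygous embryos 80 were called, 45 without the filter and 40 with only the genotypes compared, and 14 to 88 without 1 replicate (86 without homozygous mutant 6, 14 without heterozygous 3, 15 without heterozygous 4, 32 without homozygous mutant 2, 41 without heterozygous 8 and 47 without wild-type 5). Between heterozygous and wild-type embryos 0 were called, and 0 to 1 without 1 replicate (1 without heterozygous 8 and 1 without wild-type 7). Causes were not tested. The fits that leave out replicates or a genotype also hold fewer arrays, and the part of that in the counts was not tested either.

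Of the 2 members past the threshold against wild type, 1 remained with a floor of 4 noise SDs, without a filter, with only the genotypes compared and without the intensity trend, and 0 with the filter of 6 arrays, where Apoe and Vldlr were not tested. Leaving out 1 replicate left 1 to 2. Against heterozygous embryos 1 remained with the floor of 4 noise SDs, without a filter and with only the genotypes compared, 0 with the filter of 6 arrays, and 1 to 3 without 1 replicate. These counts describe values that served to group the genes and support nothing. The log2 difference to wild type ran from 0.96 to 2.53 for Vldlr u06670_s_at, from 1.20 to 5.01 for Apoe on type a and from 1.75 to 4.09 for Apoe on type b. The Afp block is balanced over the genotypes and could not move the difference of a member. Without homozygous mutant 8a and 9b Lrp1 turned to -0.033 against wild type. Leaving out 1 replicate gave Lrpap1 differences to wild type of -0.14 to 0.42 in homozygous mutant and -0.045 to 0.51 in heterozygous embryos, the negative ones without wild-type 7. Genes of the 6 lists called against wild type were 0, and 0 to 1 without 1 replicate, the 1 being Idi1 without homozygous mutant 6. No paired analysis was possible because the genotypes share fewer than 2 replicate numbers.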
